A study of Ovis aries with 32 samples.

Results

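The genes described here are HSPA1A, which codes for the stress-inducible Hsp70 chaperone, and every other gene on the array whose symbol begins with HSP or DNAJ. A script found 20 such genes, read by 24 probes, among 14328 genes and unnamed probes, of which 2392 carry a symbol. They are 6 genes of the HSPA and HSPH families, 1 HSP90 gene, 1 DNAJA gene, 7 DNAJB genes, 4 DNAJC genes and HSPBAP1, whose product binds a small heat shock protein and is not itself a chaperone. Symbols came from the accession of a probe, from the gene name in the files, or from matching the group means in the study's list of altered genes to the arrays. For 17 of the 20 the symbol is known only because the study lists the gene as altered with treatment at some age, so the share of them that changed is partly fixed by how they were named. HSPA1A, HSPA5 and HSP90AA1 also carry a name that does not depend on that list.

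The study asked how the response of cerebral arteries to alpha-1 adrenergic stimulation changes as sheep mature. Middle cerebral artery segments of 4 ages (premature fetus, near-term fetus, newborn lamb, adult) were kept untreated or given the alpha-1 agonist phenylephrine (PHE, 10 µM for 30 minutes). Their RNA was read on 32 one-colour Agilent sheep arrays, 4 in each of 8 groups, and the methods count 4 animals per experiment. The sample labels place the fetuses at 96 and 146 days of gestation, the lambs at 12 hours and the adults at 2 years, whereas the methods give 96 and 140 days, 5 days and 18 to 24 months. The methods do not say how untreated segments were kept during that exposure. In these arrays an effect of PHE and one of handling in the bath therefore cannot be told apart. Whole segments were used, so that a change in the mix of cells and a change in RNA per cell cannot be told apart.

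All levels below are log2 processed signals relative to the 75th percentile of the same array, so that 0 is that percentile, and an effect of PHE is the difference between the means of 4 treated and 4 untreated arrays. The 75th percentile lay between 638 and 985 intensity units on premature arrays, 645 and 864 on newborn arrays and 822 and 1710 on adult arrays. Near-term arrays stood apart, from 124 to 1368 untreated and from 369 to 1670 with PHE. Near-term untreated replicate 4 was the dimmest array of all, and near-term PHE replicate 1, at 369, was the dimmest treated one and is missing from the means that the study lists for that age. Near-term effects of most chaperones are therefore given with and without that treated array, and those of other genes with it. Near-term replicates also differed more from each other: the median SD of a gene was 0.43 untreated and 0.47 with PHE, against 0.17 and 0.16 in the premature fetus, 0.20 and 0.19 in the newborn and 0.28 and 0.25 in the adult. Since the test uses 1 spread per gene over all arrays, near-term calls are less certain than the others, and the counts from the arrays of an age alone are given beside them. Precision throughout is limited by having 4 arrays a group.

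Hsp70 chaperones bind unfolded stretches of protein and release them in a cycle driven by ATP. DNAJ proteins, also called Hsp40, deliver the unfolded protein and start ATP hydrolysis, while Hsp110 proteins such as HSPH1 and HSPA4 and the co-chaperone BAG3 exchange the nucleotide so that the cycle can begin again. Hsp90 acts later on kinases, receptors and other clients. Many of these genes are switched on by heat shock factor HSF1 when unfolded protein accumulates, and in arterial smooth muscle heat shock proteins are known to respond to stretch, pressure and adrenergic stimulation.

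HSPA1A was well above background and unsaturated on all 32 arrays. In the premature fetus its level was -0.30, -0.49, -0.69 and -0.56 on untreated replicates 1 to 4, and 3.81, 0.87, 4.33 and 2.28 with PHE. At near-term it was -0.62, -0.09, -1.03 and -0.50 untreated, and 3.47, 3.67, 6.30 and 7.06 with PHE. In both fetal groups every treated array was above every untreated one, but the treated arrays were spread far more widely than the untreated ones. In the newborn the levels were 1.14, 0.53, 1.87 and 1.91 untreated and 1.40, 1.95, 2.00 and 2.93 with PHE. In the adult they were 2.37, 1.69, 2.71 and 2.19 untreated and 5.27, 2.36, 4.02 and 6.6 with PHE. The newborn groups overlapped, and in the adult a single treated array, replicate 2, lay among the untreated ones while the other 3 were above them all.

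**Figure D1:**
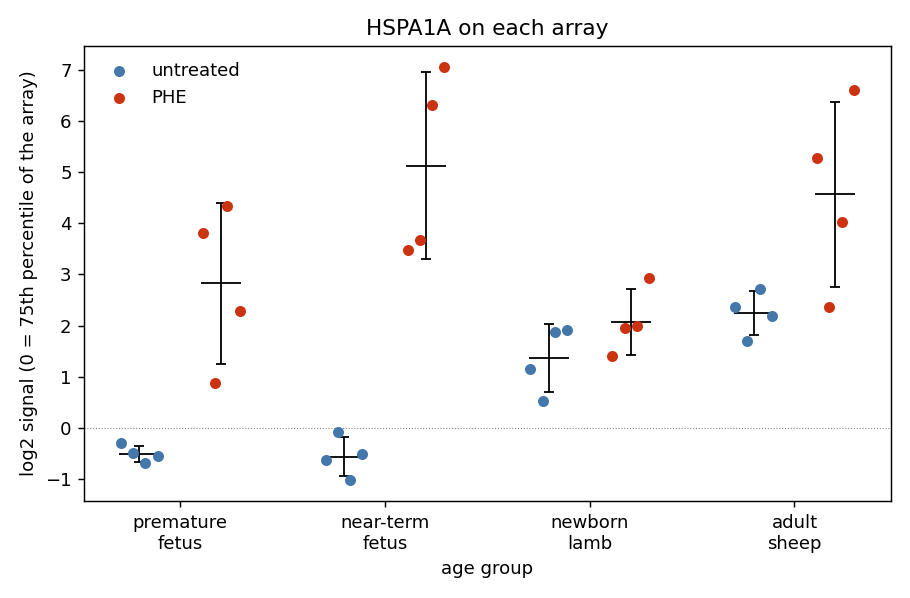
Level of HSPA1A (log2 signal relative to the array's 75th percentile) on each of the 32 arrays, by age and treatment; points are arrays and crosses are the mean ± SD of 4. Treated fetal arrays run from 0.87 to 7.06 and untreated fetal arrays from -1.03 to -0.09, whereas the newborn groups overlap.

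With PHE, HSPA1A was higher by 3.33 ± 0.76 (SE; 95% interval 1.78 to 4.89, 10.1-fold, limma adjusted p = 0.00225) in the premature fetus. The rise at near-term was 5.68 ± 0.76 (4.13 to 7.24, 51.4-fold, adjusted p = 4.2e-06), and 6.24 without near-term PHE replicate 1. In the newborn the difference of 0.70 (-0.85 to 2.26, adjusted p = 0.667) did not pass the test. Newborn arrays of equal replicate number resembled each other, and in 4 of 4 such pairs the treated array was higher, by 0.12 to 1.42, but the difference did not pass with a replicate block either (adjusted p = 0.594). The adult difference of 2.32 (0.78 to 3.87, 5.00-fold, adjusted p = 0.0914) did not pass either. Over the 8 fits that each left out 1 array it ran from 1.64 to 3.06. The highest value came without adult PHE replicate 2, the treated array that lay among the untreated ones, and passed (adjusted p = 0.00887). The near-term call held on the arrays of that age alone (adjusted p = 0.0075). Slide 1 holds all near-term PHE arrays but only 1 untreated one, the dimmest, so the difference of 5.63 within it cannot set the slide apart from that array. Any near-term effect of PHE with slide as a block rests on that same untreated array. Within slide 3 the adult value was 2.53 (adjusted p = 0.2). With the unequal-variance test of the study's methods, adjusted in the same way, neither fetal call was kept (adjusted p = 0.0568 and 0.156). Premature arrays shared 1 slide and newborn arrays another, so the slide does not enter those effects.

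Ordered by mean level, HSPA1A stood at 5.12 ± 1.82 (SD, n = 4) in near-term PHE arrays, 4.56 ± 1.81 in adult PHE, 2.82 ± 1.57 in premature PHE, 2.24 ± 0.42 in adult untreated, 2.07 ± 0.64 in newborn PHE, 1.36 ± 0.66 in newborn untreated, -0.51 ± 0.16 in premature untreated and -0.56 ± 0.39 in near-term untreated arrays. The only neighbours in this order whose arrays did not overlap were newborn untreated and premature untreated. Of the 8 places in the order, 4 were unchanged with each array scaled to its median and 6 with quantile normalization.

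Across the 20 genes, chaperone changes with PHE were called most often in the fetuses when the spread was pooled over all arrays, an order that did not hold with the arrays of each age alone. In the premature fetus 13 of 19 genes tested passed (adjusted p under 0.05 and a fold of at least 1.5), 12 higher and 1 lower, where 17.6% of all genes tested passed, 8.66% higher and 8.92% lower. At near-term 16 of 20 passed, 13 higher and 3 lower, where 36.3% of all genes passed, 17.4% higher and 18.9% lower. Without near-term PHE replicate 1 the count was 18, 15 higher and 3 lower, beside 43.6% of all genes. As most of these genes owe their symbol to the study's list of altered genes, the distance from the background cannot be read as a property of chaperones.

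In the newborn 3 of 20 passed, all higher, beside 11.3% of all genes (5.59% higher, 5.74% lower). In the adult 1 of 18 passed, beside 3.8% of all genes (2.8% higher, 1% lower). The median effect over the members tested was 1.33, 1.70, 0.43 and 0.61 in the premature fetus, near-term fetus, newborn and adult, where the median over all genes lay between -0.09 and -0.05. Without the fold and the adjustment, at a limma p under 0.05, the members numbered 17, 18, 7 and 9, where all genes numbered 3088 of 9786, 4694 of 9564, 2296 of 9438 and 1277 of 9260. No member was called at all 4 ages or in opposite directions at different ages: 3 genes were called higher at 3 ages (HSPH1, HSP90AA1 and HSPA13), 7 at 2 ages and 6 at 1 age, and 4 were called higher at none.

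These counts depended on which arrays informed the spread and on the test. Fitted on the arrays of the age alone, they were 15 in the premature fetus (29.4% of all genes; DNAJB2 and DNAJC11 beside the 13 above), 6 at near-term (2.77%), 8 in the newborn (19%) and 0 in the adult (1.63%). The near-term genes called that way were HSPA1A, HSPA4, HSPA8, HSPA13, DNAJB1 and DNAJC11, and with PHE replicate 1 also left out, a setting chosen after seeing the data, 13 were called (13.2% of all genes). In the newborn they were HSPA4, HSPA8, HSPA13, HSPH1, HSP90AA1, DNAJB1 and DNAJB6, all higher, and DNAJB4, lower. With the unequal-variance test of the study's methods and the same adjustment they were 13, 0, 6 and 0, beside 2433 of 9786, 12 of 9564, 1158 of 9438 and 9 of 9260 genes. Without adjustment that test called 14 members at near-term and 4 in the adult, beside 1827 and 595 genes. With normexp background correction the counts were 8, 10 and 1 in the fetuses and the newborn, beside 1158, 4142 and 623 genes. Without adult PHE replicate 2 the adult count was 6, beside 545 of 9347 genes, and without adult PHE replicate 4 it was 0 by limma, beside 291 of 9322. Without newborn untreated replicate 1 or 4 or PHE replicate 1 or 3 the newborn count was 1, beside 775 to 871 genes.

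**Figure D2:**
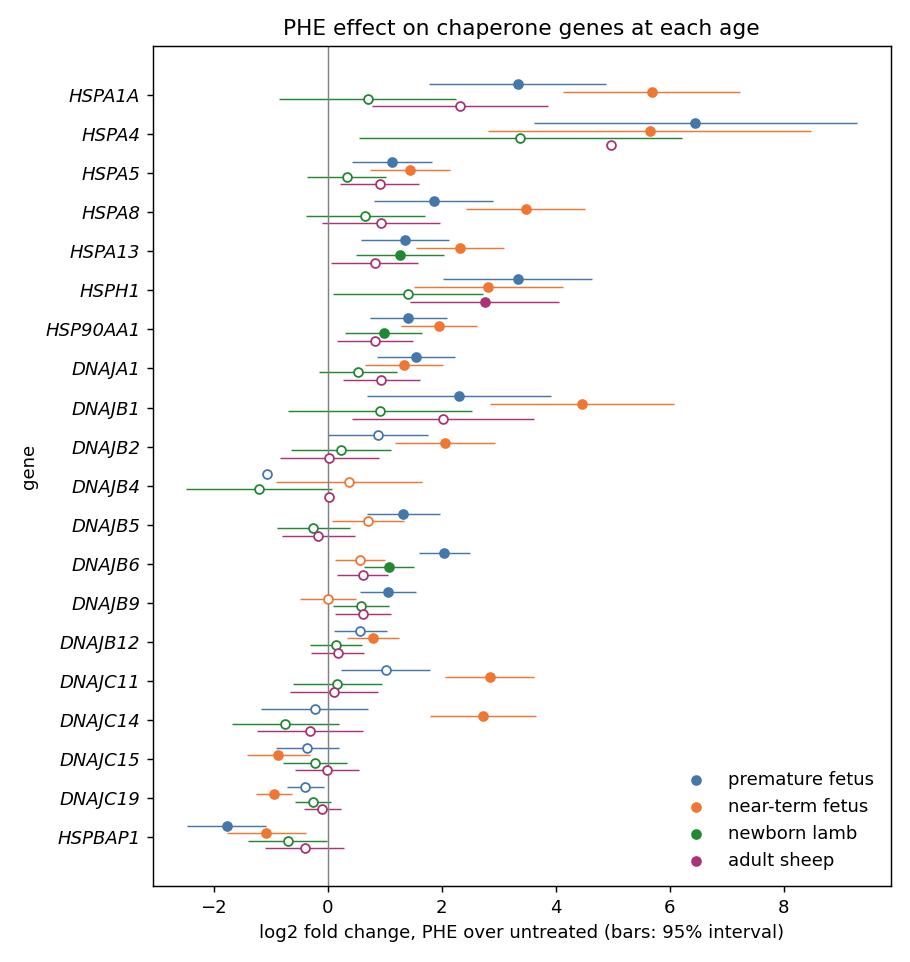
Effect of PHE (log2, PHE minus untreated) on each of the 20 genes at each of the 4 ages; filled points passed the test, open points did not, and bars are 95% intervals, left out where a gene was not tested. In the fetuses 12 and 13 genes lie to the higher side and pass, in the newborn 3 and in the adult 1.

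All 6 genes of the HSPA and HSPH families rose with PHE in both fetal groups. HSPA4, an Hsp110 family exchange factor, was well above background on 0 of 4 untreated arrays in either fetus. With PHE it reached 1.68, -3.74, 1.95 and -2.36 in the premature fetus and -1.36, -1.5, 1.32 and 2.07 at near-term. As the untreated arrays give no level, they were lifted to the faintest signal marked above background, which put the treated mean 22.5-fold and 18.4-fold above them. The test itself used the values without lifting (adjusted p = 0.00125 and 0.0021). Both calls were lost with normexp background correction (2.67 and 1.95). The near-term one was also lost with slide as a block (3.81), where the untreated side is 1 array. Neither was tested when every array had to be well above background. In the newborn its treated arrays read between -2.79 and -1.40 and 1 of 4 untreated arrays was above background (adjusted p = 0.116), and in the adult it was not tested, with 3 of 4 treated arrays above background, from -3.80 to 2.91.

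HSPH1, the Hsp105 exchange factor, was the only member called in the adult. Its adult levels were -3.04, -4.25, -2.54 and -3.93 untreated and -0.67, -2.26, -0.73 and 0.92 with PHE, a rise of 2.75 ± 0.64 (1.45 to 4.06, 6.74-fold, adjusted p = 0.00801) with every treated array above every untreated one. That call was lost on the arrays of the age alone and without adult PHE replicate 4. HSPH1 also rose by 3.33 (10.1-fold, adjusted p = 0.000394) in the premature fetus and by 2.82 (7.07-fold, adjusted p = 0.0011) at near-term, or 3.43 without PHE replicate 1. The near-term call was lost on the arrays of the age alone and with normexp correction (1.13, adjusted p = 0.0801). It was also lost with slide as a block (1.38), where the untreated side is 1 array, the dimmest. In the newborn, where the treated arrays again lay above the untreated ones, its difference of 1.41 did not pass (adjusted p = 0.163).

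HSPA13, a microsomal Hsp70 relative, showed the largest rise among the members called in the newborn. Its newborn levels were -1.40, -1.09, -0.81 and -1.60 untreated and 0.13, 0.02, 0.12 and -0.06 with PHE. The rise was 1.28 ± 0.38 (0.51 to 2.05, 2.42-fold, adjusted p = 0.0233), and the call was lost without newborn untreated replicate 1 or 4 or PHE replicate 1 or 3. In the premature fetus it rose by 1.37 (adjusted p = 0.0103), a call lost without untreated replicate 1, and at near-term by 2.33 (adjusted p = 3.86e-05), or 2.62 without PHE replicate 1. The 3 calls of HSPA13 were lost with normexp background correction, which turned the near-term value to -0.19 and left 1.02 in the premature fetus and 1.10 in the newborn (adjusted p = 0.059 and 0.0601), and 2 of its 4 near-term untreated arrays were not well above background.

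The remaining Hsp70 genes code for abundant housekeeping chaperones. HSPA8, the constitutive cytosolic form, rose 3.64-fold in the premature and 11.1-fold at near-term (18.4-fold without PHE replicate 1), and its adjusted p was 0.495 in the newborn and 0.438 in the adult. HSPA5, the Hsp70 of the endoplasmic reticulum also known as BiP, rose 2.18-fold and 2.72-fold in the premature and near-term fetus (3.36-fold without PHE replicate 1), and its adjusted p was 0.644 and 0.17 at the later ages. The HSPA5 call in the premature fetus was lost with median scaling and without untreated replicate 1 or 4 or PHE replicate 2. Its near-term groups overlapped, and that call was lost on the arrays of the age alone, also without PHE replicate 1 (limma adjusted p = 0.053). The signal of HSPA8 was high throughout, with group means from -0.04 in near-term untreated arrays to 4.42 in premature PHE arrays.

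HSP90AA1, the inducible cytosolic Hsp90, was higher with PHE in the premature fetus (2.67-fold, adjusted p = 0.00245), the near-term fetus (3.88-fold, 5.21-fold without PHE replicate 1, adjusted p = 5.36e-05) and the newborn (1.97-fold, adjusted p = 0.0465). In the newborn its levels were 2.85, 2.60, 2.98 and 2.52 untreated and 3.59, 3.40, 3.98 and 3.91 with PHE, so the groups did not overlap. The newborn call was nonetheless lost in 7 of 8 fits that each left out 1 array, with median scaling, with normexp correction and with a replicate block. The adult difference of 0.84 did not pass (adjusted p = 0.195), and the near-term call was lost on the arrays of the age alone.

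DNAJA1, a main Hsp40 partner of cytosolic Hsp70, rose 2.93-fold in the premature fetus and 2.54-fold at near-term (3.35-fold without PHE replicate 1). The near-term groups of DNAJA1 overlapped, and that call was lost on the arrays of the age alone. Of the 7 DNAJB genes, 4 rose in the premature fetus, 3 at near-term, 1 in the newborn and 0 in the adult, and none was called lower over all arrays. DNAJB1, the stress-inducible Hsp40, read -2.77, -2.29, -2.97 and -2.74 untreated and 0.67, -1.21, 0.74 and -1.74 with PHE in the premature fetus. At near-term it read -3.04, -3.07, -3.53 and -3.70 untreated and -1.28, 0.49, 2.15 and 3.16 with PHE. Its rises were 2.31 (4.94-fold, adjusted p = 0.0393) and 4.47 (22.1-fold, adjusted p = 9.73e-05; 5.27 without PHE replicate 1), and the premature call was lost in 6 of 8 fits that each left out 1 array. The treated arrays with the highest DNAJB1 were also those with the highest HSPA1A in both fetal groups, premature replicates 1 and 3 and near-term replicates 3 and 4.

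DNAJB6, an Hsp40 known for holding back protein aggregation, was called in the premature fetus and the newborn. In the premature fetus it read 0.54, 0.65, 0.56 and 0.54 untreated and 2.57, 2.62, 2.95 and 2.35 with PHE, a rise of 2.05 ± 0.21 (1.61 to 2.49, 4.14-fold, adjusted p = 6.79e-08). In the newborn it read between 1.03 and 1.25 untreated and 2.35, 1.94, 2.29 and 2.11 with PHE, a rise of 1.08 ± 0.21 (0.64 to 1.52, 2.11-fold, adjusted p = 0.00089). Its near-term effect of 0.57 had an adjusted p of 0.0345 but a fold of 1.49, just under the threshold, and was called at 1.64-fold without PHE replicate 1. The adult effect of 0.61 did not pass (adjusted p = 0.13), although every treated array was above every untreated one.

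DNAJB5 was called at 1 age, in the premature fetus, where it rose 2.51-fold from -1.77, -1.72, -2.05 and -2.06 to -0.53, -0.73, -0.06 and -0.96 (1.33 ± 0.31, 0.69 to 1.97, adjusted p = 0.00286), a call lost with normexp correction. At near-term its effect was 0.71 (adjusted p = 0.0695), and 1.11 and called without PHE replicate 1. DNAJB9, an Hsp40 of the endoplasmic reticulum, rose 2.09-fold in the premature fetus (adjusted p = 0.002) and its near-term effect was 0.00. Over all arrays DNAJB2 and DNAJB12 were called at near-term and at no other age, at 4.18-fold and 1.74-fold (5.54-fold and 2.13-fold without PHE replicate 1), and neither kept its direction over the alternatives, under which their effects ran from -0.43 to 2.96 and from -0.47 to 1.29. On the arrays of each age alone DNAJB2 was called in the premature fetus (0.89, adjusted p = 0.00232) and not at near-term (adjusted p = 0.101). DNAJB4 was called at no age over all arrays. In the premature fetus, where it was not tested, it was well above background on 2 of 4 untreated and 0 of 4 treated arrays, which overlapped, so no fold is given. In the newborn, with 2 of 4 treated arrays well above background, its difference of -1.20 did not pass over all arrays (adjusted p = 0.239) but did on the arrays of that age alone (adjusted p = 0.00512).

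Over all arrays the 4 DNAJC genes were called at near-term and at no other age, in both directions. On the arrays of each age alone DNAJC11 was the only one of them called at near-term, and it was called in the premature fetus too (1.02, adjusted p = 0.00376). DNAJC11, which belongs to the mitochondrial membrane, read -6.29, -3.83, -6.05 and -5.15 untreated and -3.52, -2.26, -2.0 and -2.16 with PHE, a difference of 2.85 ± 0.38 (adjusted p = 4.23e-06; 3.19 without PHE replicate 1). DNAJC14, of the endoplasmic reticulum membrane, read -6.00, -3.93, -6.05 and -4.30 untreated and -3.64, -2.10, -1.87 and -1.75 with PHE, a difference of 2.73 ± 0.46 (adjusted p = 5.66e-05; 3.16 without PHE replicate 1). In both genes only 1 of 4 near-term untreated arrays, replicate 2, was well above background, and its level lay close to that of treated replicate 1. The size of both differences is therefore uncertain, and neither gene is tested when every array must be well above background. Normexp background correction turned both values negative, to -0.52 and -0.43.

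DNAJC19 and DNAJC15, both of the mitochondrial inner membrane and the first a part of the protein import motor, were lower with PHE at near-term. DNAJC19 went from -0.03, -0.31, 0.24 and -0.37 to between -1.28 and -0.77, a change of -0.94 (adjusted p = 4.76e-05; -1.04 without PHE replicate 1) with no overlap. DNAJC15 changed by -0.86 (adjusted p = 0.013; -1.01 without PHE replicate 1), but its groups overlapped, its call was lost with median scaling and quantile normalization, and its values under the alternatives ran from -1.32 to 0.06.

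HSPBAP1 showed the largest fall among the members called in both fetal groups. In the premature fetus it read -3.44, -3.25, -3.59 and -2.99 untreated and -4.24, -5.36, -6.02 and -4.72 with PHE, an effect of -1.77 ± 0.34 (-2.46 to -1.08, adjusted p = 0.000374), with 2 of 4 treated arrays not well above background. At near-term it read -2.49, -2.31, -2.66 and -2.04 untreated and -3.18, -4.02, -3.55 and -3.05 with PHE, an effect of -1.08 ± 0.34 (-1.77 to -0.38, adjusted p = 0.0127; -1.17 without PHE replicate 1). The near-term call was lost on the arrays of the age alone and without near-term PHE replicate 2, and the premature one with normexp correction. The near-term call was also lost with slide as a block, where the effect was -1.41 against 1 untreated array.

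**Figure D3:**
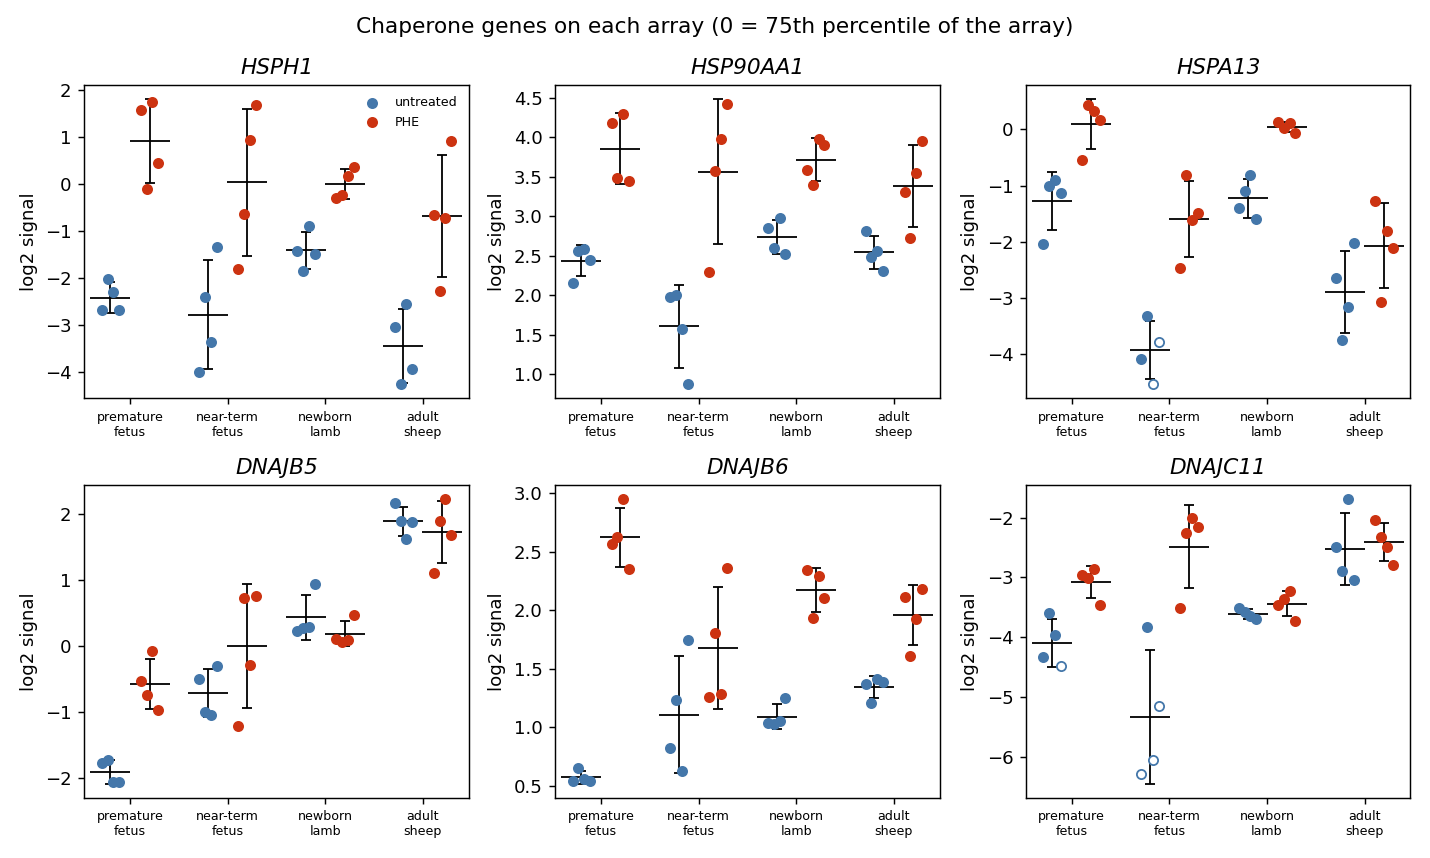
Level (log2 signal relative to the array's 75th percentile) of HSPH1, HSP90AA1, HSPA13, DNAJB5, DNAJB6 and DNAJC11 on each of the 32 arrays, by age and treatment; open points are arrays on which the probe was not well above background. DNAJC11 is above background on 1 of 4 near-term untreated arrays. Untreated DNAJB5 reads -1.90 in the premature fetus and 1.89 in the adult, whose arrays were scanned on different days and slides, so age cannot be told apart from these.

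Whether the response to PHE differed between ages was tested directly. Between adult and near-term fetus 6 of 20 members passed, 1 higher and 5 lower, where 12.1% of all genes did (5.32% higher, 6.79% lower), and at a limma p under 0.05 alone 10 did, beside 2762 of 9980 genes. HSPA1A responded less in the adult, by -3.36 ± 1.07 (-5.56 to -1.16, adjusted p = 0.04), and by -3.91 (adjusted p = 0.00938) without near-term PHE replicate 1. This call was lost in 9 of 16 fits that each left out 1 array, among them adult PHE replicate 2 (-2.63), with no filter on dim probes (adjusted p = 0.0529), with slide as a block (0.169) and on the arrays of these ages alone (0.209). The smallest adjusted p belonged to DNAJC11 (-2.73 ± 0.54, 0.00281) and DNAJC14 (-3.03 ± 0.65, 0.00535), but both rest on near-term untreated arrays of which 1 of 4 was well above background. Neither was tested when every array had to be well above background, and normexp correction turned both positive, at 0.64 and 0.24.

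HSPA8 (-2.54, adjusted p = 0.0237) and DNAJB2 (-2.04, adjusted p = 0.0282) also responded less in the adult, and DNAJC19, which fell at near-term, had an adult effect 0.85 higher (adjusted p = 0.0145). The DNAJC19 call was lost with median scaling, with slide as a block and on the arrays of these ages alone, with and without PHE replicate 1, and its lowest value was 0.46. The DNAJB2 difference ran from -3.04 to 0.49 over the alternatives, and its call was lost in 5 of 16 settings and in 6 of 16 fits that each left out 1 array. The HSPA8 call was lost with a replicate block, on the arrays of these ages alone and in 4 of 16 such fits. Without near-term PHE replicate 1 the count was 11, 1 higher and 10 lower, beside 25.5% of all genes. It was 3 without near-term untreated replicate 3, near-term PHE replicate 4 or adult untreated replicate 3. The share of all genes called in these fits is not given, so the lower count is not read as a result about the members. On the arrays of these ages alone limma called 0 members and 0% of all genes. With PHE replicate 1 also left out it called 3 (HSPA8, DNAJC11 and DNAJC14), beside 5.79% of all genes.

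Between near-term and premature fetus 3 members passed, 2 higher and 1 lower, beside 4.88% of all genes (2.72% higher, 2.17% lower), and 7 at a limma p under 0.05 alone, beside 2255 of 10298 genes. The response of DNAJB6 was smaller at near-term by -1.48 ± 0.30 (-2.10 to -0.85, adjusted p = 0.00682), and that of DNAJC14 larger by 2.96 ± 0.65 (adjusted p = 0.0099). The DNAJC14 value was 0.16 with normexp correction (adjusted p = 0.884) and 2.18 with slide as a block (adjusted p = 0.0834), and it was not tested when every array had to be well above background. DNAJC11 was the third, at 1.83 (adjusted p = 0.0467), a call lost in 13 of 16 fits that each left out 1 array and reversed to -0.45 with normexp correction. Without near-term PHE replicate 1 the count was 5, 3 higher and 2 lower, beside 14.8% of all genes, and on the arrays of these ages alone it was 0, beside 1.16%, or 2 (HSPA8 and DNAJC14) beside 5% with PHE replicate 1 also left out. For HSPA1A the difference of 2.35 did not pass (adjusted p = 0.196). The arrays of these ages were scanned on different days, and the effect of the day and that of age cannot be told apart here.

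Between newborn and premature fetus 0 of 20 members passed with limma, beside 0.0201% of all genes, all of them lower (0.0201%) and 0% higher, and 6 members had a p under 0.05 without adjustment, beside 272 of 9944 genes. The response of HSPA1A differed by -2.63 (-4.83 to -0.42, adjusted p = 1). On the arrays of these ages alone DNAJB5 (-1.58) and DNAJB6 (-0.97) were called, 2 genes beside 0.694% of all genes. The smaller number of calls in the newborn was therefore not matched by a difference of responses that passed the test over all arrays.

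Untreated arteries differed in chaperone levels as well. Between adult and near-term fetus 8 of 18 members tested were higher and 0 lower, where 44.4% of all genes passed (21.2% higher, 23.2% lower), so the share of members called was close to that of all genes. HSPA1A was 2.80 ± 0.76 higher (1.25 to 4.35, adjusted p = 0.00336) in the adult, with every adult array above every near-term one. Within slides 2 and 3, which hold 1 and 2 near-term arrays, the differences of 3.08 and 2.59 did not pass (adjusted p = 0.0834 in slide 3). DNAJB5 was 2.60 ± 0.31 higher (1.97 to 3.24, adjusted p = 1.58e-07), from -0.50, -1.0, -1.03 and -0.30 to 2.17, 1.91, 1.62 and 1.88. DNAJC11 was 2.80 higher (adjusted p = 1.13e-06), but normexp correction gave -0.65.

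The others called higher in the adult were HSPA8 (1.87), DNAJC14 (1.79), DNAJB2 (1.77), HSPA13 (1.03) and HSP90AA1 (0.93). The value of DNAJB2 ran from -0.79 to 3.92 over the alternatives, and its call was lost in 5 of 18, normexp correction among them. Normexp correction reversed DNAJC14 to -1.13 and HSPA13 to -1.26, which passed in the opposite direction (adjusted p = 0.0234 and 0.00334), so no direction is claimed for these genes, and HSPA13 also read -0.32 with the mean of its probes. Scaling to the median moved the median of all genes in this comparison from -0.01 to 0.53, and quantile normalization to 0.27, so differences smaller than that depend on the scaling. The calls of HSPA13 and HSP90AA1 were lost with slide as a block and within slides 2 and 3, and the lowest value of HSP90AA1 over the alternatives was 0.46. On the arrays of these groups alone 6 members passed, beside 28.2% of all genes, 5 of the 8 above and DNAJB1, while DNAJB2, DNAJC14 and HSPA13 did not (adjusted p = 0.0539, 0.0619 and 0.0871).

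Between newborn and premature fetus, untreated, 1 of 19 members passed, beside 11.8% of all genes (6.23% higher, 5.53% lower). It was DNAJB5, higher in the newborn by 2.34 ± 0.31 (1.70 to 2.98, adjusted p = 8.32e-06), from -1.77, -1.72, -2.05 and -2.06 to 0.23, 0.28, 0.30 and 0.94. The name of DNAJB5 rests on a match to the premature list alone, where some names may be wrong. HSPA1A differed by 1.88 (0.32 to 3.43, adjusted p = 0.108) with no overlap of the arrays, and on the arrays of these groups alone it passed (adjusted p = 0.00153), as did 9 members in all, beside 22.7% of all genes. The premature and newborn arrays lay on separate slides, so age and slide cannot be told apart.

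The genes whose level followed HSPA1A most closely over the 32 arrays were sought among 2106 named genes. BAG3, an HSF1-inducible co-chaperone of Hsp70, had the highest Pearson correlation (r = 0.917, Spearman's rho 0.898), followed by DNAJB1 (0.889, rho 0.839), BRD2 (0.868, rho 0.861), PPP1R15A (0.867, rho 0.894) and TRIM47 (0.862, rho 0.883). Without the 2 arrays farthest from the median HSPA1A level these were 0.897, 0.835, 0.851, 0.863 and 0.844. The median over all 2106 genes was 0.02. The genes named above owe their symbol to the study's list of altered genes, as do most named probes, and unnamed probes were left out. This order and the next are therefore partly fixed by how genes were named. Arrays of a group share age and treatment, so such a likeness can come from the difference between groups as well as from arrays within them.

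With the group means taken away, the order changed and chaperones came to the front. DNAJB1 (0.888), HSPA4 (0.851), HSPH1 (0.843), BAG3 (0.822), DNAJA1 (0.728) and HSPA8 (0.722) then stood highest, and HSP90AA1 (0.713) was eighth, so that 6 members were among the 10 highest, while BRD2 (0.622), PPP1R15A (0.608) and TRIM47 (0.472) dropped. The median was 0.14 over all genes and 0.35 over the 19 members compared. Members outside this set followed HSPA1A less, among them HSPA5 (0.351) and HSPA13 (0.171), or ran the other way, such as DNAJC15 (-0.331). Thus, over all groups together, arrays high in HSPA1A for their group tended to read high in DNAJB1, HSPA4 and HSPH1. HSPA1A varied most within near-term, adult and premature PHE arrays (SD 1.82, 1.81 and 1.57), against 0.16 to 0.66 in the other groups. Those PHE groups therefore weigh most in these correlations, which are not given for each group by itself. However, HSPA4 was well above background on 0 of 4 untreated arrays in either fetus and on 1 of 4 in the newborn and adult. Its correlation and place therefore rest partly on values that give no level. The same arrays carry all these genes, so anything that differs between arrays is shared by them.

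**Figure D4:**
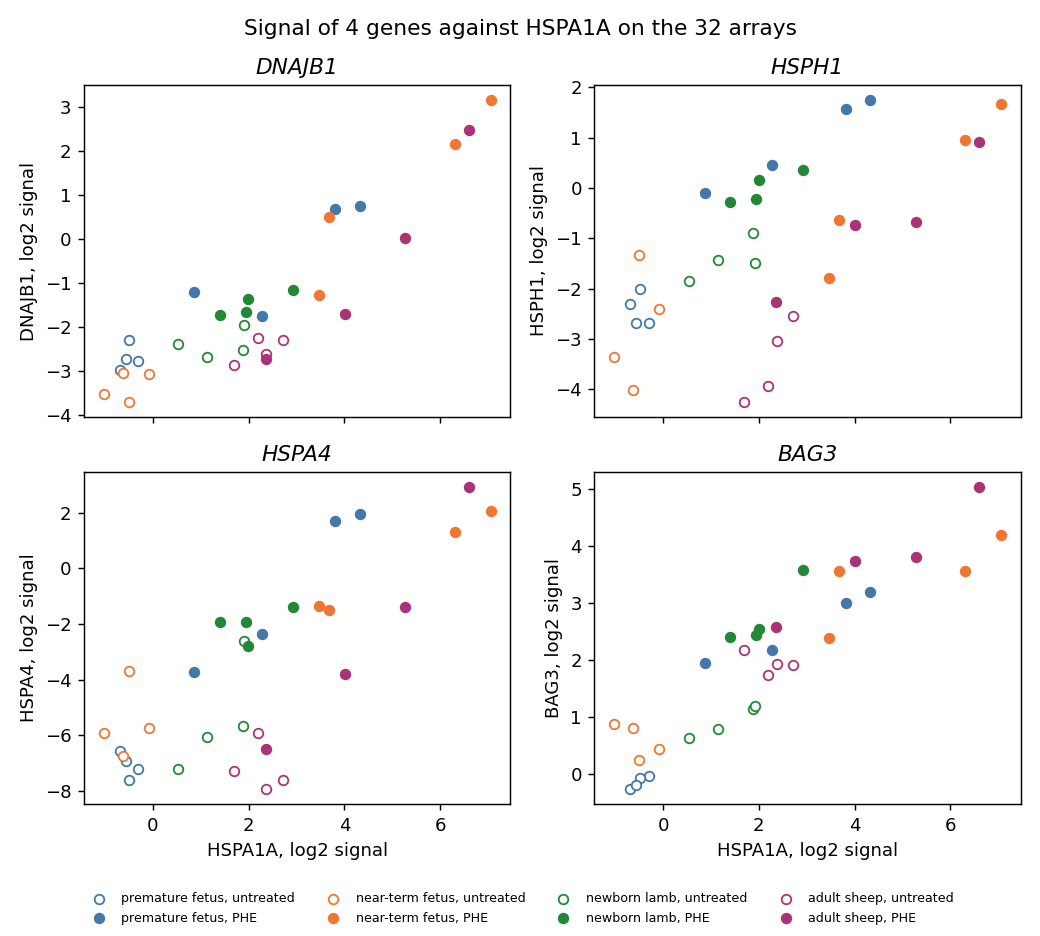
Levels of DNAJB1, HSPH1, HSPA4 and BAG3 against HSPA1A on the 32 arrays (both axes log2 signal relative to the array's 75th percentile); open points are untreated and filled points PHE arrays. Pearson's r is 0.889, 0.662, 0.775 and 0.917. HSPA4 was not well above background on most untreated arrays, so its r rests partly on values that give no level.

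Other genes of the stress response were taken from lists of related function. Of 6 heat shock factors and regulators only HSF1 was on the array under a symbol. It read -3.22, -2.86, -3.21 and -3.06 untreated and -2.19, -2.49, -2.43 and -2.48 with PHE in the premature fetus, a rise of 0.69 (adjusted p = 0.00957). It rose by 0.97 (adjusted p = 0.000261) at near-term, with effects of 0.08 and 0.02 in the newborn and adult that did not pass (adjusted p = 0.866 and 0.987). Its response was lower in the adult than at near-term (-0.95, adjusted p = 0.0235).

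Of 24 co-chaperones 2 were present. BAG3 was higher with PHE at all 4 ages, by 2.71, 2.82, 1.80 and 1.84 in the premature fetus, near-term fetus, newborn and adult (adjusted p = 6.78e-06, 4.46e-06, 0.00154 and 0.0024). FKBP5, a partner of Hsp90, was lower at near-term (-1.30, adjusted p = 0.00649). It read higher in the premature fetus with no overlap but did not pass (0.98, adjusted p = 0.0619), and the difference between these ages did (-2.27, adjusted p = 0.0136). TCP1, the only 1 of 9 chaperonin genes present, passed at no age, with effects from 0.10 to 0.41.

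Of the crystallins and the collagen chaperone all 3 were present. SERPINH1, the collagen chaperone, rose by 2.29 (adjusted p = 9.06e-05) at near-term. CRYAB, a small heat shock protein abundant in muscle, rose by 0.89 (adjusted p = 0.0222) at near-term and by 1.32 (adjusted p = 0.00853) in the adult, where it read 5.97, 5.83, 5.33 and 6.06 untreated and 7.42, 6.35, 7.31 and 7.37 with PHE. CRYAA was lower at near-term (-1.13, adjusted p = 0.00273). With limma 0 of the 3 passed in the premature fetus and the newborn, where 1 and 0 had a p under 0.05 without adjustment.

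Of 21 genes of endoplasmic reticulum stress 7 were present, and 5, 6, 4 and 3 of them were called higher in the premature fetus, near-term fetus, newborn and adult, with 0 lower at any age, beside 8.66%, 17.4%, 5.59% and 2.8% of all genes called higher. ATF4, DDIT3 and HERPUD1 were higher at every age. DDIT3, a transcription factor of that response, rose 5.38-fold in the premature fetus, 2.06-fold at near-term, 4.54-fold in the newborn and 5.43-fold in the adult, and its response was larger in the adult than at near-term (1.40, adjusted p = 0.0443). PPP1R15A, which restores protein synthesis after stress, was well above background on 0 of 4 untreated premature and 2 of 4 untreated near-term arrays. With untreated values lifted as for HSPA4 it rose at least 10.1-fold in the premature fetus, and by 3.99 without lifting at near-term, with effects of 0.99 and 0.56 that did not pass in the newborn and adult (adjusted p = 0.272 and 0.756), and PDIA3 rose by 2.02 at near-term alone. Of 13 genes of ubiquitin and protein clearance 9 were present, with 7, 5, 6 and 2 higher and 0, 1, 0 and 0 lower at the 4 ages, beside the same shares of all genes. HMOX1, which breaks down haem, rose by 2.10 in the premature fetus and 2.70 in the adult, and at least 6.66-fold in the newborn, where 0 of 4 untreated arrays were well above background. Its near-term effect of 0.84 did not pass. SQSTM1, an autophagy receptor, rose by 2.19, 1.36 and 1.48 at the 3 younger ages, and UBQLN1 by 1.69 and 2.17 in the fetuses. Most symbols in these lists also come from the study's list of altered genes, so the counts carry the same limit as those of the chaperones.

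Markers of the cell types that an artery segment can hold were read beside these results. Of 8 smooth muscle markers only CNN1 was on the array under a symbol. Its mean level, in multiples of the array's 75th percentile, was 34.5 untreated and 28.8 with PHE in the premature fetus, 263 and 167 at near-term, 126 and 108 in the newborn and 423 and 439 in the adult, and it passed with PHE at no age. None of 7 endothelial markers was present under a symbol, so the label of the tissue could be checked for smooth muscle only.

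Blood markers, 2 of 6 present and led by HBA1, summed to 41.6 untreated and 11.9 with PHE in the premature fetus, 16.4 and 4.03 at near-term, 30.1 and 15.6 in the newborn and 5.95 and 3.27 in the adult. HBA1 was called lower with PHE in both fetal groups (-1.96 and -2.38). It also read lower with PHE in the newborn (log2 level 3.83, untreated 4.84) and in the adult (1.68, untreated 2.43), without passing. Fibroblast markers, 3 of 5 present and led by DCN in the premature fetus, summed to 92.1 and 77.1, 39.2 and 71.6, 33.4 and 55.3, and 11.1 and 11.2 at the 4 ages. COL1A1 (4.22) and COL3A1 (3.66) were higher with PHE at near-term, where SERPINH1 rose. DCN, the other fibroblast marker, was not called there and read 4.95 untreated and 4.63 with PHE (log2). Leukocyte markers, 5 of 8 present, summed to 2.12 untreated and 4.08 with PHE in the premature fetus, 3.41 and 2.01 at near-term, 2.97 and 5.16 in the newborn and 0.61 and 1.40 in the adult. The sum was thus lower with PHE at near-term and higher at the other ages, with no overlap of arrays in the premature fetus. CD68 was called higher with PHE at the 3 ages other than the premature fetus. At near-term CD14 (-1.04) and CD3E (-1.34) read lower without passing (adjusted p = 0.135 and 0.124). Fat (1 of 3 present) and brain markers (4 of 5) had group means of at most 0.844 and 1.07, the former in untreated newborn arrays, over the 3 on which it was measured. The part of these cells in the chaperone results was not tested.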

How the data were processed

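RNA of 32 artery samples was measured, 4 in each of 8 groups taken from the sample labels. Per the file headers, the scans were turned into signals by the authors in Agilent Feature Extraction 9.5.3.1, which subtracts the background and detrends within each array, and deposited processed signal intensities that are not scaled between arrays. The same files hold the mean spot intensities with the median local background intensities, before subtraction, and marks of 0 or 1 per spot (well above background, saturated, outlier), both deposited as the software wrote them.

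From there, control spots and spots marked as outliers were dropped, repeated spots of 50 probes averaged, and signals expressed as log2 multiples of the 75th percentile of their array. R 4.3.3 with limma 3.58.1 fitted 8 group means over all arrays with lmFit and eBayes. The rest ran in Python 3.11.15 (pandas 2.3.3, matplotlib 3.10.9, numpy 2.4.6, scipy 1.17.1). A gene was tested where its brightest probe exceeded background clearly, by the mark in the files, throughout the 4 arrays of any group compared, and called at a two-sided Benjamini-Hochberg adjusted p under 0.05 over all genes tested with a fold of at least 1.5. Intervals are at 95%. For groups without any such array, values were lifted to the faintest signal marked above background on the array, and the fold of the means is a lower bound for those arrays, while the test used the values without lifting.

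Names were matched to the study's list within 0.1%, which gave 1 match each to 1170 of the 1269 premature entries and, at the later ages in turn, to 1101 of 1106, 1012 of 1016 and 437 of 438. A displaced copy of the list gave 101, 1, 0 and 1 matches, so some premature names may be wrong. Where a probe had a name from both sources, 57 of 64 list names equalled those by accession and 98 of 160 those in the files. The second HSPA1A probe, named HSP70.1, was joined to the first by its accession after both had been seen.

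The members and lists were chosen with earlier results of these data known. Named in full are HSPA1A, members called at all ages or in opposite directions (none), the largest called rise and fall at each age, the 2 smallest adjusted p of each difference between ages, the 5 genes most correlated with HSPA1A, and up to 3 called genes of each related list with the largest change. The spread was at first moderated over all genes and later over the genes tested, a choice made after the calls under both were known, and both are reported.

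On simulated data with an equal spread the fit recovered the changes with few false calls. With each group's own spread it made many more false calls at near-term than at the other ages, which is why counts from the arrays of an age alone stand beside it.

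Alternatives were quantile normalization, median scaling, normexp correction (offset 50), no and stricter filters on dim probes, no fold threshold, averaging the probes of a gene, fitting the compared arrays by themselves, a replicate or slide block, values within a slide, the methods' own test, the deposited matrix, names independent of the list, chaperones only, and each array left out in turn. Chosen after seeing the data were array weights, leaving out both dim near-term arrays, leaving out near-term PHE replicate 1 with only the arrays compared, the other HSPA1A probe, and the moderation over all genes. Real-time PCR, prazosin and contraction experiments were not analysed here.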

Additional observations from a re-analysis of the deposited data

Results flagged for a closer look

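Among 72 sets of 4 arrays examined for the genes named in full, 4 held an array far from the other 3 by Dixon's ratio, where chance gives about 1 in 20. DNAJB5 read 0.94 on the highest untreated newborn array (ratio 0.907) and 0.48 on the highest PHE newborn array (0.896). DNAJB6 read 0.65 on the highest untreated premature array (0.857) and 1.25 on the highest untreated newborn array (0.883). In each of these the other 3 arrays lay close together.

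The effect of PHE differed between ages, by the test of the difference itself, in 9 instances. Adult minus near-term, the differences (log2) were -2.04 for DNAJB2, -2.73 for DNAJC11, -3.03 for DNAJC14, 0.85 for DNAJC19, -3.36 for HSPA1A and -2.54 for HSPA8. Near-term minus premature, they were -1.48 for DNAJB6, 1.83 for DNAJC11 and 2.96 for DNAJC14. For DNAJB2, DNAJC11 and DNAJC14 only 1 of 4 untreated near-term arrays was well above background. All 9 involve the near-term arrays, whose replicates varied most, and 0 of them passed with limma on the arrays compared alone. With near-term PHE replicate 1 also left out, a setting chosen after seeing the data, HSPA8, DNAJC11 and DNAJC14 passed for adult minus near-term and DNAJC14 for near-term minus premature. The cause was not tested.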

How the results depend on the processing

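Counts are of chaperone genes called. Where no share of all genes is given for a setting, a change in the count is not read as a result about the chaperones. With normexp background correction they were 8 (premature), 10 (near-term) and 1 (newborn) for PHE. With only the arrays compared they were 6 (near-term), 8 (newborn) and 0 (adult), 2, 0 and 0 for the differences newborn minus premature, adult minus near-term and near-term minus premature, and 9 for untreated newborn minus premature. With names independent of the study's list, where 3 genes remain, they were 3, 3, 1 and 0 for PHE at the 4 ages, 1 and 0 for adult minus near-term and near-term minus premature, and 0 and 2 untreated.

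Requiring every array of the groups compared to be well above background gave 10 at near-term, 3 for adult minus near-term, 1 for near-term minus premature and 4 for untreated adult minus near-term. Slide as a block gave 10 at near-term and 3 for adult minus near-term, where the near-term effect rests on 1 untreated array. Slide 3 alone gave 3 for the untreated difference, and no count is given for slide 2, which holds 1 near-term array. Quantile normalization gave 5 for near-term minus premature and 2 for untreated newborn minus premature. The mean of a gene's probes gave 2 in the adult. With the replicate block, which treats arrays of equal number as paired, the adult count was 2, and HSPA1A kept its calls (adjusted p = 0.00338 premature and 6.29e-05 near-term, 0.594 newborn, 0.0753 adult).

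The methods' own test gave 8 (newborn), 4 (adult) and 9 (untreated newborn minus premature) without adjustment, and with it 0 at near-term, 6 in the newborn, 0 in the adult, 6 and 2 untreated. HSPA1A then had adjusted p = 0.0568 (3.33, premature) and 0.156 (5.68, near-term). Of the alternatives chosen after seeing the data, array weights gave 8 (newborn), 5 (adult), 3 (newborn minus premature), 8 (near-term minus premature) and 7 (untreated newborn minus premature). Leaving out both dim near-term arrays gave 12 and 8 for adult minus near-term and near-term minus premature. The arrays compared without near-term PHE replicate 1 gave 3 for adult minus near-term, beside 5.79% of all genes. Moderation over all genes gave 2 in the newborn and 2 for near-term minus premature.

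For HSPA1A, adult minus near-term was no longer past the threshold with no filter (-3.36, adjusted p = 0.0529), only the arrays compared (-3.36, 0.209; -3.91, 0.0629 without near-term PHE replicate 1), slide as a block (-3.19, 0.169) and array weights (-3.80, 0.0597). Untreated newborn minus premature passed with only the arrays compared (1.88, 0.00153), the methods' own test (1.88 before and after adjustment, adjusted p = 0.0447) and array weights (1.81, 0.0125). Untreated adult minus near-term did not pass within slides 2 and 3 (3.08 and 2.59), where near-term has 1 and 2 arrays. In the order of the 8 groups 4 places were kept with median scaling and 6 with quantile normalization.

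Normexp correction reversed DNAJC11 (-0.52), DNAJC14 (-0.43) and HSPA13 (-0.19) at near-term, DNAJC11 (0.64) and DNAJC14 (0.24) for adult minus near-term, DNAJC11 (-0.45) for near-term minus premature, and DNAJC11 (-0.65), DNAJC14 (-1.13) and HSPA13 (-1.26) for untreated adult minus near-term, where HSPA13 was also reversed by the mean of its probes (-0.32). With normexp correction the untreated values of DNAJC14 and HSPA13 passed in the opposite direction. DNAJC14 for near-term minus premature was 0.16 with normexp correction. DNAJB2, called in the same comparisons, ran from -0.43 to 2.96 at near-term, -3.04 to 0.49 for adult minus near-term and -0.79 to 3.92 untreated over the alternatives. Leaving out 1 array at a time gave 10 to 13, 15 to 18, 1 to 4 and 0 to 6 for PHE at the 4 ages, 0 to 0, 3 to 11 and 2 to 5 for the 3 differences, and 1 to 1 and 6 to 9 untreated. HSPA1A then ranged from 2.83 to 3.98, 5.04 to 6.24, 0.42 to 0.93 and 1.64 to 3.06 at the 4 ages, and from -3.28 to -2.13, -4.04 to -2.63 and 1.70 to 2.90 for the differences, and 1.69 to 2.15 and 2.65 to 2.98 untreated. In all, 251 of the other values for counts and HSPA1A kept their direction and side of the threshold. Of the rest, 48 were classed as moved, 9 as weaker and 4 as stronger. Signal close to background limits DNAJB2, DNAJB4, DNAJC11, DNAJC14, HSPA4, HSPA13 and HSPBAP1 in some groups, and 4 arrays a group limit every value. The cause of these changes was not tested.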

Other observations

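An unnamed probe that carries the accession of the HSPA1A probes followed HSPA1A over the 32 arrays (r = 0.998). Its PHE minus untreated difference was 3.31 in the premature, 5.79 in the near-term, 0.66 in the newborn and 2.39 in the adult artery, and it was well above background on every array. It was not counted as a separate gene.

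Untreated and PHE arrays of equal replicate number deviated from their group means alike across 6914 genes in premature (r from 0.364 to 0.552) and newborn arrays (0.498 to 0.598), where each array was closest to the one of its own number in 4 of 4 pairs. At near-term r ran from -0.194 to 0.335 and in the adult from -0.101 to 0.034. These are correlations across genes, which are not independent replicates.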
